A study of Mus musculus with 46 samples.

Results

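Nicotine withdrawal was set against saline withdrawal in the nucleus accumbens of male DBA/2J mice, 24 h after a minipump worn for 14 days had been taken out by surgery. The pumps of the nicotine group had delivered 24 mg of nicotine per kg per day, and those of the saline group saline alone. The comparison rested on 11 of the 46 arrays of the study, chosen by their labels: 5 nicotine withdrawal mice and 6 saline withdrawal mice, 1 array per mouse, referred to as nicotine mice and saline mice. DBA/2J is an inbred strain that is studied beside C57BL/6J because the strains differ in many responses to nicotine. For comparison, 6 nicotine and 6 saline C57BL/6J mice had gone through the same withdrawal, and 6 nicotine and 6 saline DBA/2J mice of the chronic phase had kept the pump until death. The 5 nicotine and 6 saline C57BL/6J mice of the chronic phase entered the estimate of spread shared by all 46 mice. No ages are given in the sources used here, mice were caged in groups of 4 with no cage numbers given, and both withdrawal groups had the pump removed.

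The nucleus accumbens is a ventral part of the striatum in which dopamine from the midbrain acts on inhibitory spiny neurons, and it takes part in reward and motivation. Nicotine opens nicotinic acetylcholine receptors on dopamine axons and on the cells that innervate them. Long exposure is known to raise the number of high-affinity receptors at the protein level, and stopping nicotine is followed in mice by a withdrawal state with lowered dopamine release in the accumbens. Transcripts known to respond to changes of activity, such as Fos and Arc, and the neuropeptide, dopamine and synaptic genes of the region were therefore read beside all other genes.

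RNA was hybridised to Affymetrix MTA 1.0 arrays, and the deposited values are log2 intensities per gene and array. After a filter on low intensity, 9592 genes were tested. The arrays correlated with the mean of their own group at r from 0.993 to 0.998. Their medians over the tested genes lay between 8.77 and 8.84 in the 5 nicotine mice and between 8.71 and 8.81 in the 6 saline mice. None of the tested genes lay on chromosomes 1 to 6, apart from a few on unplaced pieces of chromosomes 1 and 4. Shares of all tested genes therefore leave these chromosomes out. Their genes were tested only through S-scores that the authors deposited, in which a nicotine mouse is scored against the whole saline group that matches it. The labels do not say whether mice were littermates or which were processed together, so p-values measure the spread between these mice, and no batch could be tested.

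Markers of striatal spiny neurons and of cortical neurons were read beside the tissue label. Ppp1r1b, which encodes the dopamine signalling protein DARPP-32, had log2 levels between 10.94 and 11.59 in the nicotine mice and between 10.90 and 11.59 in the saline mice. Slc17a7, the vesicular glutamate transporter of cortical neurons, whose transcripts are scarce in spiny neurons, had levels of 13.56, 13.45, 13.35, 13.31 and 12.97 in the nicotine mice, against 12.75, 13.13, 13.57, 11.83, 13.44 and 13.76 in the saline mice. Both kinds of marker were present in every mouse, so they do not by themselves settle which region was dissected. Saline mouse 4 had the lowest Slc17a7. Over 14 tested markers of cortical excitatory neurons, the mean of the members, each centred on the saline mice, ran between -0.07 and 0.32 in the nicotine mice and between -0.61 and 0.32 in the saline mice. Over 20 tested spiny neuron genes it ran between -0.09 and 0.26 in the nicotine mice and between -0.20 and 0.22 in the saline mice, so both lists overlapped between the groups. A higher mean in nicotine withdrawal was found for 12 of the 14 cortical markers (median 0.11) and for 17 of the 20 spiny neuron genes (median 0.07), where 62.1% of all tested genes were higher (median 0.02). Without saline mouse 4 the cortical median was 0.00875, and over all single mice left out the spiny neuron median ran from 0.03 to 0.12. In tissue of this kind, fewer cells of a type and less RNA per cell cannot be told apart.

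No gene differed between nicotine and saline withdrawal after Benjamini-Hochberg adjustment over all tested genes: limma called 0 of 9592 (0%), and the lowest adjusted p was 0.812. At an unadjusted p under 0.05 there were 523 genes (5.45%), where 479.6 would arise without any effect. Of these, 340 had a higher mean (3.54% of the tested genes) and 183 a lower mean (1.91%) in the nicotine mice. The share of higher genes among them was 65.0% as deposited, but 22.9% (115 higher and 388 lower) after each array was centred on its median, and 41.6% (200 higher and 281 lower) after quantile normalization. The balance between higher and lower genes therefore turned with the scaling, and is not reported as a direction. The median difference over all tested genes was 0.02 on the log2 scale, with 62.1% of them above 0.

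The differences were small. The median standard error was 0.0746 on the log2 scale, and for 96.3% of the genes the whole 95% confidence interval lay within 0.5 of 0, that is within 1.41-fold. A difference beyond 0.5 was measured for 8 genes, and the largest, 2.79 for the predicted gene Gm11096, came with levels from 6.40 to 12.71 in the nicotine mice and from 3.06 to 10.70 in the saline mice, which overlapped. In 52 genes (0.542%) no nicotine mouse overlapped with any saline mouse, 35 with higher values in nicotine withdrawal (0.365%) and 17 with lower values (0.177%).

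The 10 genes with the smallest p-values and a higher mean in nicotine withdrawal, predicted genes aside, are shown first, and none passed the adjusted test. Siah3, related to the Siah ubiquitin ligases, had log2 levels of 7.77, 7.70, 7.86, 7.54 and 7.57 in the nicotine mice, against 7.45, 7.04, 7.22, 7.10, 7.35 and 7.23 in the saline mice. All nicotine mice lay above all saline mice, and the difference was 0.46 with an interval from 0.22 to 0.70 (limma, adjusted p = 0.812). Lrp12, a transmembrane protein of the low density lipoprotein receptor family, had levels of 10.76, 10.79, 10.79, 10.90 and 10.76 in the nicotine mice, against 10.73, 10.52, 10.62, 10.59, 10.59 and 10.58 in the saline mice. The groups did not overlap, although saline mouse 1 came close, and the difference was 0.19 (SE 0.0508).

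Zdhhc1 belongs to the family of enzymes that attach palmitate to membrane proteins. Its levels were 10.17, 10.10, 10.08, 10.27 and 10.23 in the nicotine mice, against 9.97, 9.99, 9.73, 10.03, 9.97 and 9.98 in the saline mice. The groups did not overlap, saline mouse 3 lay below the others, and the difference was 0.22 (SE 0.0614, adjusted p = 0.812 in limma). Zfp143, a transcription factor that binds promoters, had levels of 10.22, 10.22, 10.23, 10.13 and 10.23 in the nicotine mice, against 9.88, 10.09, 10.13, 9.82, 9.98 and 10.07 in the saline mice. Nicotine mouse 4 stood just above the highest saline mouse, and the difference was 0.21 (SE 0.0604).

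The other 6 genes of this direction overlapped between the groups, with all 5 nicotine mice above the saline mean in each. Csnk1d encodes casein kinase 1 delta, which phosphorylates the PER proteins of the circadian clock. Its levels were 10.63, 10.56, 10.59, 10.71 and 10.70 in the nicotine mice, against 10.45, 10.25, 10.48, 10.55, 10.61 and 10.47 in the saline mice, a difference of 0.17 (SE 0.0460). Only saline mouse 5 exceeded the lower nicotine mice. Gdpd1, a phosphodiesterase that acts on lysophospholipids, differed by 0.23, and Acad8, the isobutyryl-CoA dehydrogenase of valine breakdown, by 0.21. Trim30a, a tripartite motif protein that restrains NF-kappa-B signalling in mouse cells, differed by 0.22, Wbp1l, a WW domain binding protein, by 0.21, and Zadh2, a zinc-binding dehydrogenase, by 0.25. For Trim30a the saline mice lay between 5.96 and 6.20, all below the filter limit. The adjusted p in limma was 0.812 for Csnk1d and Gdpd1 and 0.858 for the other 4 genes, so none was called. The S-scores of the same mice were positive in 5 of 5 for 9 of the 10 genes. Means were 1.53 for Siah3 and 1.95 for Zdhhc1, while Trim30a was positive in 3 of 5 with a mean of 0.52. These scores come from the same mice and saline group that picked the genes, so they are not a second test of them.

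**Figure D1:**
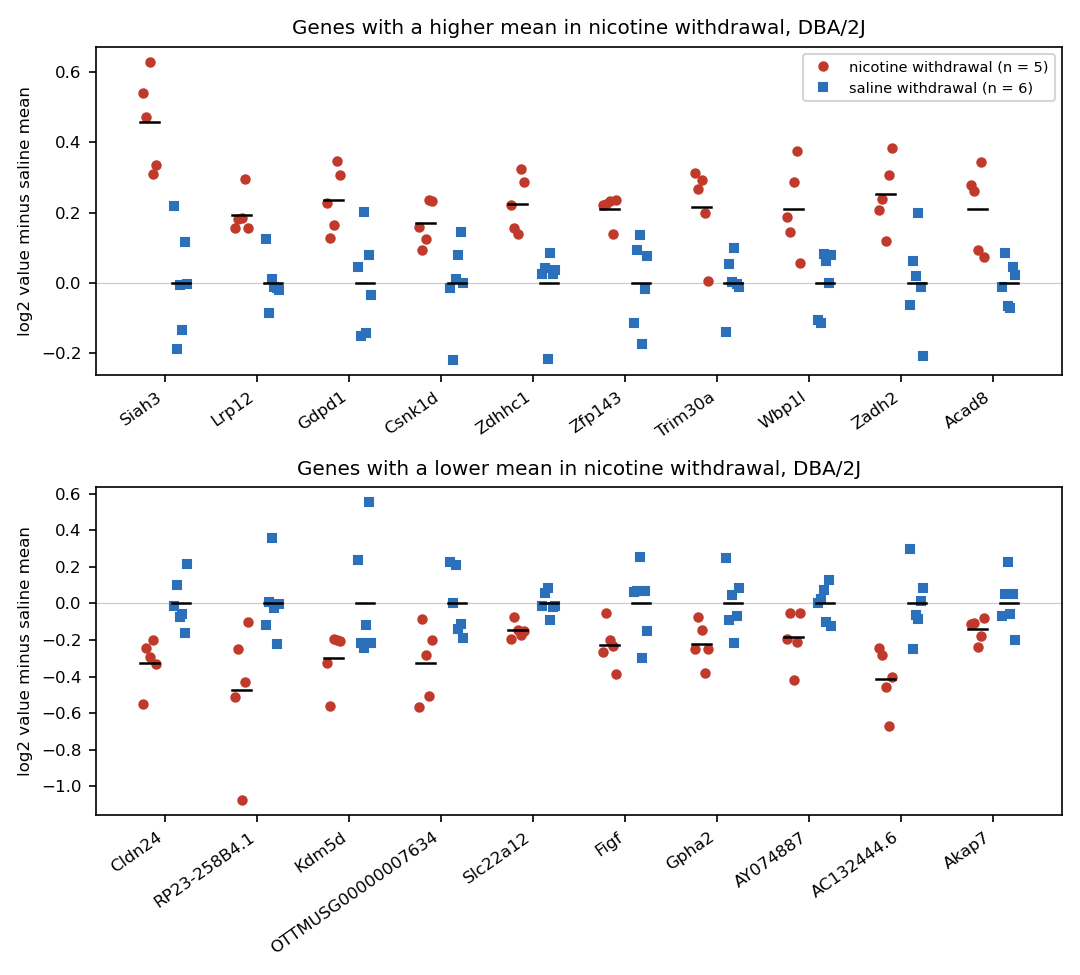
Log2 level of each mouse minus the mean of the 6 saline mice, for the 10 genes of each direction with the smallest p-values (top, higher mean in nicotine withdrawal; bottom, lower mean). Circles are the 5 nicotine mice, squares the 6 saline mice and bars the group means. The groups are apart for Siah3, Lrp12, Zdhhc1, Zfp143 and Cldn24, and Kdm5d has 2 saline mice well above the rest.

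Among the 10 genes with a lower mean in nicotine withdrawal, Cldn24 had the smallest p of all tested genes. It encodes a claudin, a family of membrane proteins that build tight junctions. Its levels were 6.18, 6.49, 6.44, 6.53 and 6.40 in the nicotine mice, against 6.72, 6.83, 6.66, 6.67, 6.57 and 6.95 in the saline mice. The nicotine mice lay close to the filter limit, with nicotine mouse 1 below it. The groups did not overlap, and the difference was -0.32 with an interval from -0.48 to -0.17 (limma, unadjusted p = 0.00015, adjusted p = 0.812). The S-scores of Cldn24, from the same mice and so no second test either, were negative in 4 of 5 mice, with a mean of -0.96.

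The other 9 genes of this direction overlapped between the groups, with all 5 nicotine mice below the saline mean in each. Slc22a12, known as the urate transporter of the kidney, differed by -0.15, Figf, the growth factor VEGF-D, by -0.23, Gpha2, a subunit of the hormone thyrostimulin, by -0.22, and Akap7, an anchor of protein kinase A, by -0.14. For Slc22a12, Figf and Gpha2 all 5 nicotine mice lay below the filter limit of their own arrays, so these values are near the floor. Unnamed transcripts made up most of the rest: RP23-258B4.1 on the X chromosome differed by -0.47, OTTMUSG00000007634 by -0.33, AY074887 by -0.19 and AC132444.6 by -0.41. All had an adjusted p of 0.812 or 0.858 in limma. On the X chromosome 54.1% of the 735 tested genes had a lower mean in nicotine withdrawal, against 36.5% of all other tested genes. Of the 735, 66 had an unadjusted p under 0.05 in limma, 17 higher and 49 lower. Over all tested genes 3.54% were higher and 1.91% lower at that threshold. These counts hold for the deposited scale. The balance of higher and lower genes turned with the scaling, and the X counts were not repeated after median centring.

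Promoter sequences of the genes without overlap are shown so that the reader can see the stretch before each gene. They cover 300 bases around the start of each gene, from RefSeq on mouse build GRCm38.p6, for 3 of the 5 named genes whose groups did not overlap, picked after their values were seen. The Siah3 promoter is chr14:75455732-75456031 on the plus strand, that of Zdhhc1 is chr8:105497013-105497312 on the minus strand, and that of Cldn24 is chr8:47821893-47822192 on the plus strand. Capitals mark matches, on either strand, to TGACG, the core of the cyclic AMP response element, to the E-box CACGTG or to TATAAA.

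Siah3 promoter: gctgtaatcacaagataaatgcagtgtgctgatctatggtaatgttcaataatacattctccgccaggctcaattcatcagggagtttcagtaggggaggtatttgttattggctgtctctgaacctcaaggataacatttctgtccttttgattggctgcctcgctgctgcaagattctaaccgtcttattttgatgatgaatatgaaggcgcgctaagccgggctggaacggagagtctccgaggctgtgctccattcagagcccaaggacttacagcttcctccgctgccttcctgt

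Zdhhc1 promoter: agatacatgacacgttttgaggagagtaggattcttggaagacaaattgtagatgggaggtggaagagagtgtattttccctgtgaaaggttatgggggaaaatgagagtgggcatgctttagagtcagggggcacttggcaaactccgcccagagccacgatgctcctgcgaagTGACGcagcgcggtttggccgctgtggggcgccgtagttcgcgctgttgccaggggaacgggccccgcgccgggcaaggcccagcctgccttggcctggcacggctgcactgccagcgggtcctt

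Cldn24 promoter: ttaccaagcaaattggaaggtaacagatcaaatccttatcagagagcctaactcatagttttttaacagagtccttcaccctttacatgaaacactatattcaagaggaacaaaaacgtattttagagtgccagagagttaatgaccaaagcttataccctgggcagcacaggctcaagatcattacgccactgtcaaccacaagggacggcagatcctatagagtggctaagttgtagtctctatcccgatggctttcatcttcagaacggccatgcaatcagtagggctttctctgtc

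Of these, the Zdhhc1 promoter held 1 match, to TGACG, and the others held none. Over the 12 named genes with a promoter in the table, TGACG occurred in 3 (Gdpd1, Zdhhc1 and Zfp143), where 20.8% of all 32851 promoters held it. The full element TGACGTCA occurred in 0 of the 12 and in 1.79% of all promoters. The E-box occurred in 1 (Akap7), against 7.15% of all, and TATAAA in 1 (Kdm5d), against 13.6% of all. GGGCGG, the GC box, occurred in 7, against 35.7% of all. A match describes letters only.

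Kdm5d, a histone demethylase encoded on the Y chromosome, was the one lower gene whose value rested on particular saline mice. Its levels were 9.62, 9.38, 9.75, 9.75 and 9.74 in the nicotine mice, against 10.18, 9.73, 9.70, 9.82, 10.50 and 9.73 in the saline mice. Saline mice 1 and 5 were high, and the other saline mice lay close to the nicotine mice. The same mice were the highest of all 46 for Uty, a demethylase relative of UTX, with 10.98 and 11.26, for Ddx3y, an RNA helicase, with 11.30 and 11.85, and for Eif2s3y, a translation factor subunit, with 11.62 and 11.86. In the other 44 mice Ddx3y ran between 10.56 and 11.23 and Uty between 10.22 and 10.71. The Kdm5d difference was -0.30 with all mice (unadjusted p = 0.0025 in limma) and -0.10 without saline mice 1 and 5 (unadjusted p = 0.177), an alternative chosen after seeing the data. What sets these mice apart was not tested.

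A second set of Y chromosome transcripts stood the other way round. Gm20925 had levels of 7.08, 7.14, 7.04, 6.96 and 6.65 in the nicotine mice, against 6.28, 6.34, 6.33, 6.07, 6.27 and 5.95 in the saline mice. No mouse overlapped, and the difference was 0.77 (SE 0.206, adjusted p = 0.812 in limma over all groups). All 6 saline mice lay below the filter limit for Gm20925. Gm20936 and Gm21268 carry identical values on every array and differed by 0.61, and Gm20919 and Gm21661, also identical to each other, by 0.67. Since such copies share probes, they are a single measurement or a few, not 5. In a limma fit on the 11 mice alone, Gm20936, Gm21268 and Gm20925 passed, with adjusted p-values of 0.0063 to 0.0064. In the 35 mice of the other groups Gm20925 ran from 5.88 to 7.59, a wider range than the 11 mice span, and the common fit counts this spread as error. These predicted genes were chosen after their values were seen.

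**Figure D2:**
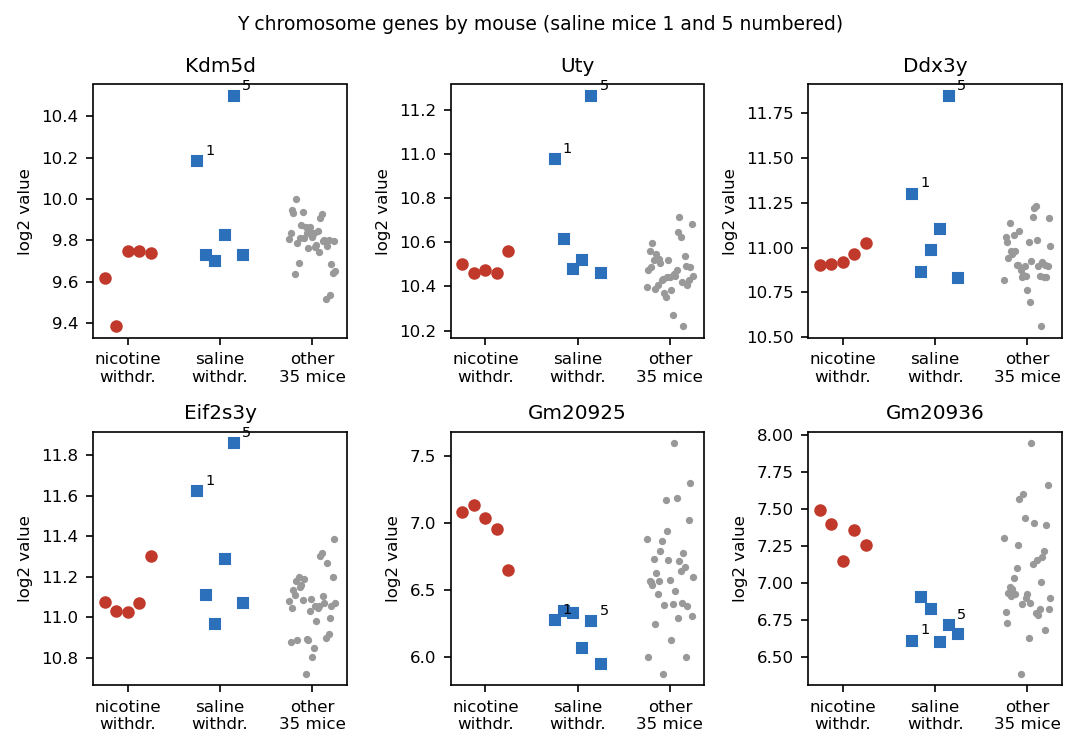
Log2 level of 6 Y chromosome genes in the 5 nicotine withdrawal mice (circles), the 6 saline withdrawal mice (squares) and the 35 mice of all other groups (small points). Saline mice 1 and 5 lie above all others for Kdm5d, Uty, Ddx3y and Eif2s3y, while Gm20925 and Gm20936 separate the 2 withdrawal groups within the range of the other mice.

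For 9555 genes, most of them on chromosomes 1 to 6, the S-scores were the only measure, in units of their own and not as folds. Over all 25858 genes limma, with the saline mice taken to vary as much as the nicotine mice, called 0 (0%) at adjusted p under 0.05, with a lowest adjusted p of 0.543. At an unadjusted p under 0.05 there were 1662 genes (6.43%), 1194 with a positive mean score (4.62%) and 468 with a negative one (1.81%). Each nicotine mouse's log2 differences correlated best with its own score column, at r from 0.691 to 0.776 across genes, which are not independent. Tested against 0 as if the saline mice had no error, 224 genes passed, and the 12 genes named next were among them.

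Rnf220, a ubiquitin ligase, led the genes without per-array values, with S-scores of 3.52, 1.51, 2.27, 2.75 and 2.23 in the 5 nicotine mice (mean 2.46). Lpcat4, an enzyme that adds acyl chains to lysophospholipids, scored 4.64, 1.75, 2.84, 3.29 and 3.02 (mean 3.11). All 5 mice were positive for both. Frmd4a, a FERM domain scaffold, had a mean score of 2.22, Zfp384, a zinc finger transcription factor, 1.59, Ggcx, the vitamin K-dependent carboxylase, 1.57, and Dnajb2, a co-chaperone of neurons, 1.64. The adjusted p in limma was 0.543 for these 6 genes.

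In the other direction all 5 mice were negative for 6 named genes. Sycp2, a protein of the synaptonemal complex of meiosis, scored -6.27, -6.02, -3.17, -0.48 and -3.16 (mean -3.82), with nicotine mouse 4 near 0. Hfm1, a helicase of meiosis, had a mean score of -1.95, and Mms22l, which serves the repair of broken replication forks, -1.36. Lrrc42 had -1.19, Mettl5, which methylates 18S ribosomal RNA, -1.16, and Gpr161, a receptor of the primary cilium, -1.05. Their adjusted p-values in limma ran from 0.572 to 0.639.

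The genes closest to nicotine's action are ordered here from receptor to response. Of 16 genes set for this purpose, all had S-scores and 7 passed the intensity filter on the arrays. Chrna7, the subunit of the low-affinity nicotinic receptor, had levels of 9.92, 9.95, 9.84, 10.04 and 9.90 in the nicotine mice, against 9.97, 9.81, 9.93, 9.76, 9.82 and 9.91 in the saline mice. The groups overlapped, and the difference was 0.06 with an interval from -0.09 to 0.22. Over the 16 nicotinic subunits in the table, 8 had a positive mean S-score, against 52.3% of all genes, and 0 reached an unadjusted p under 0.05 in either direction. Chrna4 and Chrnb2, the subunits of the main high-affinity receptor, had mean scores of 1.01 and 0.56, and Chrna6, found on dopamine axons, 0.57.

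Lynx1 encodes a membrane-anchored brake on nicotinic receptors. Its levels were 10.39, 10.31, 10.40, 10.31 and 10.40 in the nicotine mice, against 9.94, 9.91, 10.17, 10.15, 10.27 and 10.36 in the saline mice. The nicotine mice lay close together, saline mice 1 to 5 lay below all of them and saline mouse 6 lay within their range, and the difference was 0.23 with an interval from -0.01 to 0.46. By S-score all 5 mice were positive (mean 1.42, unadjusted p = 0.0113 and adjusted p = 0.677 in limma). Ric3, a chaperone of receptor assembly, differed by 0.12 and Ly6e, a Lynx1 relative, by 0.18, and neither reached an unadjusted p under 0.05. Of the 5 tested chaperones and modulators 3 had a higher mean, against 62.1% of all tested genes. By S-score 7 of 15 had a positive mean, against 52.3% of all genes, with a median score of -0.03.

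All 4 dopamine receptor genes tested on the arrays had a slightly higher mean in nicotine withdrawal, within wide intervals, where 62.1% of all tested genes did. By S-score 4 of 5 were positive, against 52.3% of all genes, Drd5 being at -0.13. Drd2 had levels of 13.36, 13.41, 13.28, 13.83 and 13.76 in the nicotine mice, against 13.81, 13.47, 13.42, 13.69, 13.12 and 13.19 in the saline mice. The groups overlapped throughout, and the difference was 0.08, with an interval from -0.22 to 0.38. Drd1a differed by 0.05 and Drd3, the receptor typical of the ventral striatum, by 0.21 with an interval from -0.20 to 0.62. For both Drd2 and Drd1a only 2 of 5 nicotine mice lay above the saline mean, and for Drd3 4 of 5. Penk, which encodes the enkephalin precursor of spiny neurons, was read by S-score only, at 2.82, -0.44, 2.38, 2.09 and 3.09. Nicotine mouse 2 had no positive score, and the mean of 1.99 had an unadjusted p of 0.039 and an adjusted p of 0.767 in limma. Oprm1, the mu opioid receptor, differed by 0.04, Pdyn, the dynorphin precursor, had a mean score of 0.67 and Bdnf, a neurotrophin, of 0.38.

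Activity-regulated genes varied more between mice than between groups. Fos had levels of 7.26, 7.51, 7.44, 7.11 and 7.73 in the nicotine mice, against 7.39, 7.80, 6.69, 7.58, 6.81 and 7.84 in the saline mice. The saline mice spanned a wider range than the nicotine mice, and the difference was 0.06 with an interval from -0.53 to 0.65. Arc differed by 0.02 with an interval from -0.75 to 0.78, and its sign turned when arrays were centred on their median (-0.02). Of 21 tested immediate early genes 14 had a higher mean, against 62.1% of all genes, and 0 reached an unadjusted p under 0.05.

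Across all 43 gene lists, 533 different members were tested on the arrays, 0 at adjusted p under 0.05. At an unadjusted p under 0.05, 11 had a higher mean and 4 a lower one, together 2.81% of the members, which is below the 5.45% of all genes. By S-score 49 of 978 members had a positive and 4 a negative mean at an unadjusted p under 0.05, where 4.62% and 1.81% of all genes did. What follows describes their counts and medians. After median centring 43.8% of all tested genes had a higher mean in nicotine withdrawal, with a median of -0.01, and centred counts are to be read against that share.

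Genes of synaptic vesicle release, the machinery that docks and fuses transmitter vesicles, had a higher mean in 18 of 20 tested members, against 62.1% of all genes, with a median difference of 0.09 against 0.02 over all. After median centring 14 of 20 were higher, with a median of 0.05. Syn3, a synapsin, differed by 0.18 and Vamp2, a vesicle membrane protein of the fusion machinery, by 0.14. By S-score 29 of 32 members had a positive mean, against 52.3% of all genes, and 10 had an unadjusted p under 0.05 with a positive score, against 4.62% of all genes, among them Cplx1, a complexin, at 1.92 and Sv2a, a vesicle glycoprotein, at 1.84. The mean over the list ran between 0.04 and 0.15 in the nicotine mice and between -0.14 and 0.09 in the saline mice, which overlapped. Saline mouse 4 was the lowest saline mouse in this list and in the cortical excitatory markers, of which 24 of 26 had a positive mean S-score. The part of cortical cells in the synaptic values was not tested.

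Potassium channel genes had a higher mean in 18 of 19 tested members (median 0.09), and 13 of 19 after median centring. The median was 0.05 without nicotine mouse 1, without saline mouse 1 or after centring, and 0.06 without saline mouse 4. Kcnk1, a two-pore channel subunit, differed by 0.17 on the arrays, and by S-score 40 of 43 members were positive, against 52.3% of all genes, and 7 were positive at an unadjusted p under 0.05, against 4.62% of all genes. Of 15 tested glutamate receptor genes 11 had a higher mean, and 8 after median centring, with medians of 0.05 and 0.01. Grin2a, a subunit of the NMDA receptor, had levels of 12.56, 12.53, 12.54, 12.38 and 12.45 in the nicotine mice, against 12.29, 12.24, 12.39, 12.30, 12.43 and 12.34 in the saline mice. The groups overlapped only through nicotine mouse 4 and saline mice 3 and 5, and the difference was 0.16 (unadjusted p = 0.028 in limma). All 8 tested GABA receptor genes had a higher mean, and 6 after median centring.

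Genes of cholesterol synthesis had a higher mean in 16 of 18 tested members (median 0.07, and 13 of 18 after median centring). With single mice left out this median ran from 0.04, without nicotine mouse 4, to 0.12, without nicotine mouse 5, and it was 0.05 without nicotine mouse 1. Dhcr7, which makes cholesterol in the last step of the pathway, had levels of 9.09, 8.80, 8.82, 8.85 and 8.93 in the nicotine mice, against 8.75, 8.25, 8.66, 8.72, 8.93 and 8.83 in the saline mice. Saline mouse 2 was the lowest and the groups overlapped, with a difference of 0.21 (unadjusted p = 0.021 in limma), which was 0.12 without saline mouse 2. Circadian clock genes had a higher mean in 11 of 13, Csnk1d among them, and in 9 of 13 after median centring. Their median was 0.06, against 0.02 after centring and 0.02 without nicotine mouse 4. Mt1, a metallothionein and known glucocorticoid target, differed by 0.27, Hsf1, the heat shock transcription factor, by 0.18, and Nqo1, a quinone reductase, by 0.22, each at an unadjusted p between 0.030 and 0.044 in limma. Of 18 tested glucocorticoid, 19 heat shock and 22 antioxidant genes, 1 in each list was under 0.05, against 5.45% of all genes. Higher means were found for 13, 12 and 14 of them, against 62.1% of all genes. After median centring 10, 8 and 11 were higher, against 43.8%. The Mt1 difference was 0.17 without saline mouse 3.

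Lower means prevailed in a few lists. Clustered histone genes, which are copied mostly in dividing cells, had a lower mean in 32 of 38 tested members, against 37.9% of all genes, with a median of -0.09. After median centring 3 of 38 had a higher mean, against 43.8% of all tested genes, with a median of -0.12. By S-score 33 of 67 members had a positive mean, against 52.3% of all genes, with a median score of -0.02. Their mean over the list ran between -0.16 and 0.02 in the nicotine mice and between -0.09 and 0.08 in the saline mice, which overlapped. Genes of oxidative phosphorylation, the respiratory chain of mitochondria, had a lower mean in 34 of 50 (median -0.04). That median was 0.00075 without nicotine mouse 3 and between -0.02 and -0.03 without nicotine mouse 4, saline mouse 2 or saline mouse 3, and -0.07 without nicotine mouse 5. After median centring 8 of 50 had a higher mean, with a median of -0.08. By S-score 37 of 76 members had a positive mean, with a median score of -0.02. Sdha, a subunit of complex II, differed the other way, by 0.12. Cytosolic ribosomal protein genes had a lower mean in 5 of 6 tested members (median -0.08), 2 of them at an unadjusted p under 0.05, against 1.91% of all genes. Imprinted genes did not share this direction, with 9 of 16 tested members higher and 7 lower (median 0.01). Among them Ube3a, a ubiquitin ligase that neurons read from the maternal copy, had levels of 11.23, 11.31, 11.73, 11.66 and 11.69 in the nicotine mice, against 11.73, 12.26, 11.67, 11.90, 11.58 and 11.53 in the saline mice. Nicotine mice 1 and 2 were low and saline mouse 2 was high, with a difference of -0.25 (unadjusted p = 0.026 in limma).

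Markers of other cells in the dissected tissue were read in the same way. All 14 tested genes of endothelium and vessel wall had a higher mean in nicotine withdrawal (12 after median centring), and 13 of 14 astrocyte genes (12 after median centring), with medians of 0.08 and 0.07. None of these reached an unadjusted p under 0.05 on the arrays, and by S-score 2 of 26 endothelial and 2 of 20 astrocyte genes did, all positive, against 4.62% of all genes. With single mice left out the endothelial median ran from 0.05, without saline mouse 1, to 0.11, without nicotine mouse 4 or saline mouse 3. The astrocyte median ran from 0.04, without saline mouse 1, to 0.11, without nicotine mouse 4, nicotine mouse 5 or saline mouse 4. Olig2, the transcription factor of the oligodendrocyte lineage, had levels of 9.18, 8.97, 9.13, 9.15 and 9.03 in the nicotine mice, against 8.88, 8.59, 8.61, 8.95, 8.85 and 9.02 in the saline mice. The groups overlapped only between nicotine mouse 2 and saline mouse 6, and the difference was 0.28 (unadjusted p = 0.013 in limma), while the 8 tested precursor markers split evenly, 4 higher and 4 lower.

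Markers of meninges and of blood differed between single mice. Over 10 tested genes of meninges and fibroblasts, the list mean was 0.33 and 0.58 in nicotine mice 1 and 2, between -0.28 and 0.05 in the other nicotine mice, and between -0.31 and 0.24 in the saline mice. Nicotine mice 1 and 2 thus lay above every saline mouse, and the list's median difference was 0.05 with all mice and -0.0449 without nicotine mouse 2. All 4 tested genes of red blood cells had a lower mean (median -0.28), with list means from -0.79 in nicotine mouse 4 to 0.25 in nicotine mouse 2, against -0.30 to 0.28 in the saline mice. The part of these cells in the gene differences was not tested.

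**Figure D3:**
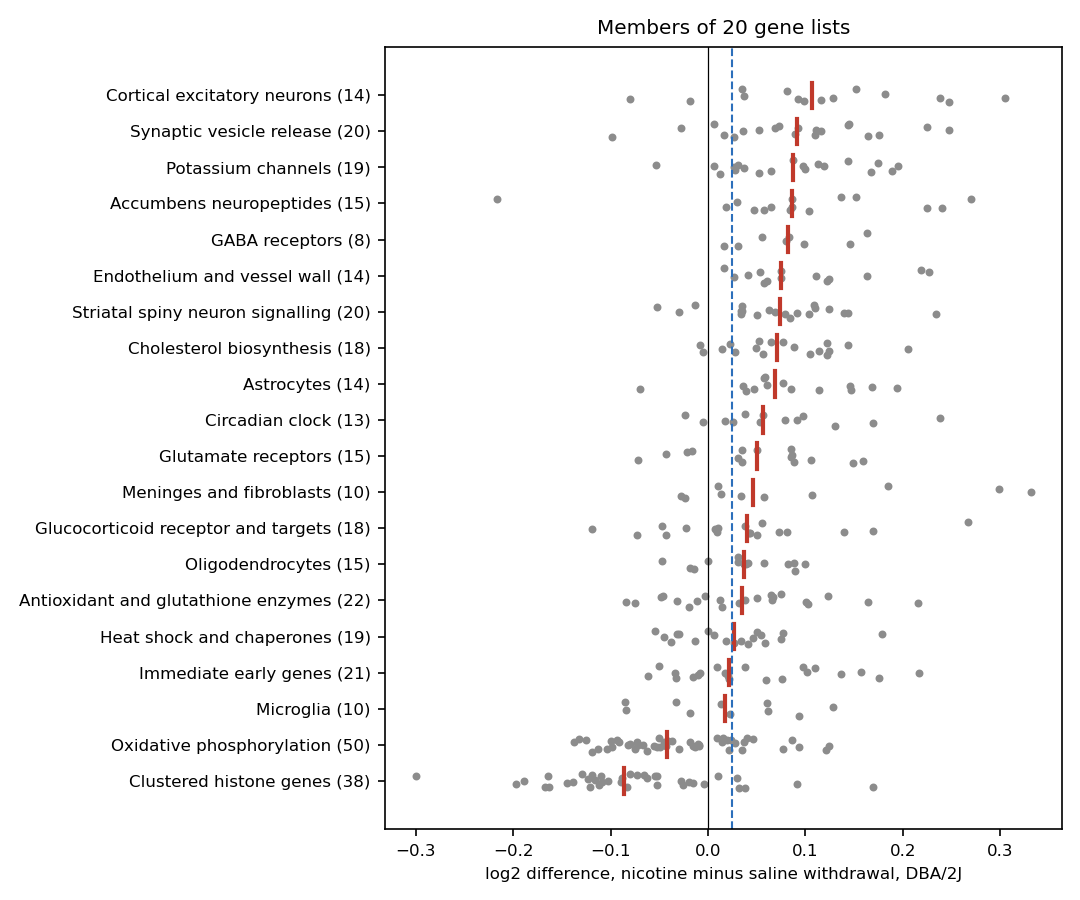
Log2 difference, nicotine minus saline withdrawal in DBA/2J, of each tested member (points) of 20 gene lists, with the list's median (red bar) and, in parentheses, the number of members. The dashed line is the median of all tested genes, 0.02. Synaptic vesicle and potassium channel genes lie mostly to its right, oxidative phosphorylation and histone genes to its left.

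Whether the response differs by strain was asked by subtracting the C57BL/6J withdrawal difference from that of DBA/2J. limma called 0 of 9592 genes (0%), with a lowest adjusted p of 0.604, and 677 genes (7.06%) had an unadjusted p under 0.05. Of these, 448 had a positive strain difference (4.67%) and 229 a negative one (2.39%), and over all genes 60% were positive and 40% negative. After median centring the count of positive ones was 166, so the balance is not reported as a direction. In C57BL/6J alone 0 genes passed in limma (0%), and 286 (2.98%) had an unadjusted p under 0.05, 107 higher (1.12%) and 179 lower (1.87%) in nicotine withdrawal. Over all genes 47% were higher and 53% lower in C57BL/6J nicotine withdrawal. Across genes the 2 responses, from separate mice, correlated at r = -0.34, and 39.2% of genes had the same sign. Cortical excitatory markers were higher in 12 of 14 in DBA/2J (median 0.11) and in 1 of 14 in C57BL/6J (median -0.23). Of 14 astrocyte markers 13 and 3 were higher, and of 14 endothelial markers 14 and 3. Spiny neuron genes were mostly higher in both strains, 17 and 19 of 20. The part of tissue content in the correlation was not tested. Of 26 genes at an unadjusted p under 0.05 in both strains, 2 had the same sign. These are descriptions across genes, which are not independent.

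Nqo1 differed by 0.22 in DBA/2J and by -0.30 in C57BL/6J, a strain difference of 0.51 (SE 0.144). Fn3krp, a kinase related to the enzyme that removes sugar from proteins, differed by 0.22 in DBA/2J and by -0.21 in C57BL/6J. Exog, a mitochondrial nuclease, differed by 0.17 in DBA/2J and by -0.17 in C57BL/6J. H2afy3 differed by 0.15 in DBA/2J and by -0.27 in C57BL/6J. In the other direction Cldn24 differed by -0.32 in DBA/2J and by 0.15 in C57BL/6J, a strain difference of -0.47 (SE 0.107, unadjusted p = 7.1e-05 and adjusted p = 0.604 in limma). AY074887, RP23-258B4.1 and AC132444.6 had strain differences of -0.37, -0.67 and -0.69. None of the 8 passed.

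**Figure D4:**
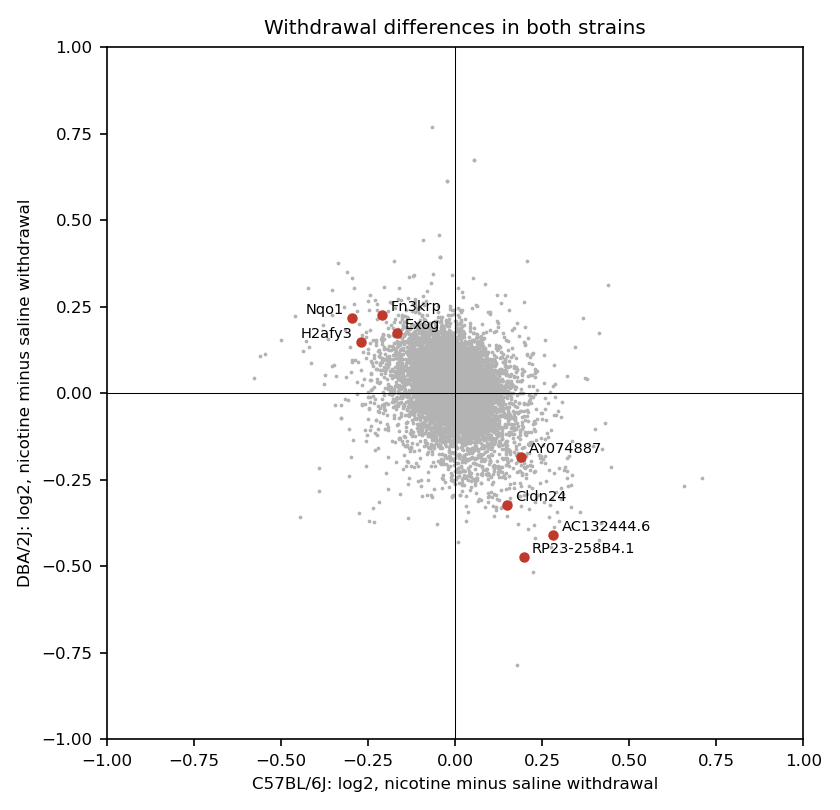
Log2 difference, nicotine minus saline withdrawal, of each tested gene in DBA/2J (vertical axis) and in C57BL/6J (horizontal axis). The 8 labelled genes are the 4 of each direction with the smallest p-values for the strain difference, predicted genes aside, and 1 gene beyond the axes is not drawn. The labelled genes lie in the 2 quadrants of opposite sign, and the cloud leans the same way (r = -0.34).

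Withdrawal was also set against chronic exposure within DBA/2J. The difference between the 2 phases gave 0 calls of 9592 in limma (0%), a lowest adjusted p of 0.980, and 359 genes (3.74%) at an unadjusted p under 0.05, where 479.6 would arise without any effect. That count was 199 under the stricter filter, 833 with array weights, 571 without an intensity filter and 596 without nicotine mouse 5, so it lay on either side of this number. Of these, 185 had a positive difference between phases (1.93%) and 174 a negative one (1.81%), and over all genes 48% were positive and 52% negative. In the chronic phase alone 0 genes passed in limma (0%), and 769 (8.02%) had an unadjusted p under 0.05, 586 higher (6.11%) and 183 lower (1.91%) in nicotine mice. Over all genes 62% were higher and 38% lower in chronic nicotine mice. The differences of the 2 phases correlated at r = 0.10 across genes, from separate nicotine and saline mice, and 58.3% of genes had the same sign. Of 32 genes at an unadjusted p under 0.05 in both phases, 25 had the same sign.

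Wbp1l differed by 0.21 in withdrawal and by -0.06 in the chronic phase, and Vps37c, a subunit of the ESCRT-I sorting complex, by 0.20 and -0.13. Tube1, an epsilon tubulin, differed by 0.12 and -0.08, and Fam50b by 0.13 and -0.31. Ndn, the imprinted gene necdin, differed by -0.19 in withdrawal and by 0.28 in the chronic phase, Hmgb2, a chromatin protein, by -0.11 and 0.27, and Arxes2 by -0.15 and 0.31. Kdm5d, whose withdrawal value rests on saline mice 1 and 5, differed by -0.30 and 0.10. Each of these 8 had an adjusted p of 0.980 in limma for the difference between phases. Of the lists, clustered histone genes had a median of -0.09 in withdrawal and of 0.16 in the chronic phase, with 32 of 38 members higher in the chronic phase, and spiny neuron genes medians of 0.07 and 0.20.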

How the data were processed

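The log2 values are those the authors deposited, 1 per transcript cluster and array, from 2.58 to 19.9, with nearly equal array medians. The score values are S-scores that the authors deposited, 1 per nicotine mouse against its whole matching saline group, per the file headers. No source used here gives the summarisation, scaling, S-score method or build. File coordinates overlapped the GRCm38.p6 gene of the same symbol for 99.4% of 22105 genes compared.

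Of 16303 genes with per-array values, 9592 were tested, those that exceeded the 50th percentile of features other than controls on at least 5 arrays. limma 3.58.1 in R 4.3.3 fitted all 8 groups of 46 mice together (lmFit and eBayes, residual degrees of freedom 38, prior 4.14) with two-sided p-values and Benjamini-Hochberg adjustment over all genes and a threshold of 0.05. S-scores were tested in limma with the saline mice taken to vary as much as the nicotine mice. Scripts were tested on simulated data. Files were read with pandas 2.3.3 and the R package data.table, version 1.17.8, and plots drawn with matplotlib 3.10.9 in Python 3.11.15.

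Named genes are those with the smallest p: 10 per direction, 6 by S-score alone, 4 per difference between strains or phases, up to 4 per list, and 16 set genes; predicted genes were passed over (3 higher, 11 lower). Other genes were chosen after their values were seen. The comparison, lists and genes were chosen with earlier results of these data known. Of 1050 entries in 43 lists, 1020 were found. Symbols turned into dates (26 features) were left out. The number of arrays limits the precision. Mouse numbers were checked as pairs: deviations of same-numbered mice correlated at -0.27 to -0.003, so the numbers do not pair mice. Alternatives covered the filter, scaling, variance model, array weights, a replicate block and leaving out mice.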

Additional observations from a re-analysis of the deposited data

Results flagged for a closer look

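Of 226 sets of values per group, 13 held a mouse far from the others of its group by Dixon's criterion, and chance gives about 1 in 20. On the log2 scale, nicotine mouse 4 stood apart for Lrp12 at 10.90, for Zfp143 at 10.13 and for Csnk1e, a clock kinase, at 10.10. Nicotine mouse 5 stood apart for Sst, the somatostatin gene of interneurons, at 16.56, for Fosb, an activity-regulated gene, at 7.65, for Fam50b at 6.54 and for Eif2s3y at 11.30. Saline mouse 3 was low for Zdhhc1 at 9.73, and saline mouse 4 low for Sdha at 11.94. Saline mouse 2 was high for ND6, a mitochondrial gene of complex I, at 16.89, where the nicotine mice lay between 14.73 and 15.20 and the other saline mice between 14.89 and 15.40. By S-score, nicotine mouse 3 was low for Chrnb2 at -1.68 and nicotine mouse 2 for Penk at -0.44. The mean over the oxidative phosphorylation genes was -0.10 in saline mouse 1.

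For 5 genes, every DBA/2J nicotine mouse lay on one side of its saline mean and every C57BL/6J nicotine mouse on the other side of its own. This was looked for only among genes picked for this report, not among all tested genes. AY074887, H2afy3 and Fn3krp had been picked by their strain difference in the same data. The strain difference was 0.31 for Trim30a, -0.37 for AY074887, 0.42 for H2afy3, 0.43 for Fn3krp and 0.31 for Vps37c. Tested as a difference in limma, none passed, with adjusted p-values from 0.604 to 0.655.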

How the results depend on the processing

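The count of 0 genes at adjusted p under 0.05 held for nicotine against saline withdrawal in DBA/2J under all alternatives but one: with only the 11 mice in the limma fit, 3 genes passed, all multi-copy Y chromosome transcripts. The strain difference gave 0 to 1 genes when single mice were left out, the 1 being Gm16139 without DBA/2J nicotine mouse 5 (-0.70 against -0.59 with all mice, adjusted p = 0.042 in limma), and 0 otherwise; the phase difference gave 0 throughout. S-scores tested against 0 gave 224. The fit on the 11 mice gave its 3 genes smaller errors, and the test against 0 leaves out the error of the saline mice. For Gm16139 the difference itself became larger in size. The cause was not tested. Genes at an unadjusted p under 0.05 numbered 523, against 809 without the intensity filter, 333 without nicotine mouse 1 and 333 to 634 over all single mice left out. Of the higher ones, 340, there were 115 after median centring, 200 after quantile normalization, 216 without nicotine mouse 1 and 183 without saline mouse 2. For the strain difference, 677 became 443 above the 75th percentile, and its 448 higher genes became 166 after median centring. For the phase difference, 359 became 199 above the 75th percentile, 571 without a filter, 833 with array weights, 237 without nicotine mouse 1 and 596 without nicotine mouse 5. Its 185 higher genes became 93, 316 and 372 under the first 3 of these, 122 without nicotine mouse 1 and 119 without chronic saline mouse 6. S-score genes numbered 1662, and 4182 against 0.

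Signs were followed only for the named and set genes, and among these they turned only for 4 set genes with differences near 0. Most of the others had been picked by a small p in the same data, which left little room for a turned sign. Over all tested genes the share with a higher mean went from 62.1% to 43.8% after median centring, so many other genes changed sign. List medians turned too: with single mice left out, oxidative phosphorylation reached 0.00075, immediate early genes -0.0016, heat shock genes -0.00729, microglia -0.0125, oligodendrocytes -0.00559 and meninges -0.0449. After median centring heat shock genes were at -0.00976, immediate early genes at -0.015, microglia at -0.0186 and antioxidant genes at -0.00111, and after quantile normalization heat shock genes were at -0.00334 and microglia at -0.00386. Without saline mice 1 and 5 immediate early genes were at -0.0282 and glucocorticoid targets at -0.00144. Arc was -0.0186 after median centring, -0.0218 after quantile normalization, -1.84e-05 with a replicate block and -0.19 without saline mice 1 and 5. Fos was -0.0653 without those mice, and Oprm1 -0.00799 with array weights and -0.0612 by S-score. With single mice left out, Arc ran from -0.13 to 0.16, Fos from -0.0743 to 0.16, Oprm1 from -0.0196 to 0.0858 and Drd1a from -0.0206 to 0.11. The mouse numbers share only a number: with the replicate block limma called 0 genes in the 3 array comparisons. Leaving out saline mice 1 and 5, chosen after seeing the data, also gave 0.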
